A study of Rattus norvegicus with 18 samples.

Results

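Single fetal rat calvaria cells were grown into colonies, and the transcripts of 3 colonies labelled as expressing osteocalcin alone ("osteocalcin" below) were compared with those of 3 colonies labelled as expressing neither osteocalcin nor adipsin ("neither"). These 6 of the 9 colonies of the series, numbered I to III in each type, fill 12 of its 18 arrays. The members of the comparison were taken from the labels, which assign a colony by its osteoblast and adipocyte marker expression, and not from the array values. The other 3 colonies, labelled as expressing both markers ("both"), entered the fit only to estimate the spread between colonies, and their levels are given where they help to place a gene. All colonies were cultured in the same way. A flow cytometer placed single cells, which then grew for 4 weeks (37 C, 5% CO2) in a-MEM to which serum, ascorbic acid, BGP and Dex had been added. Each colony yielded only 100 to 300 cells, so its RNA was amplified before labelling. The sources used here do not give rat strain, fetal age, or how many cell preparations the colonies came from, so p-values measure only the spread between these colonies.

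The calvaria is the flat bone of the skull roof, and its cells form bone in culture. Osteoblasts lay down collagen I, then mineralize it, and release osteocalcin, a small calcium-binding protein encoded by Bglap, late in that sequence. Adipsin, or complement factor D, is a serine protease encoded by Cfd and released by adipocytes, which arise from the same mesenchymal lineage. A colony without either marker was therefore typed by what it lacks, and the labels do not say which cells it holds.

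Every colony was read on chip A (RAE230A) and on chip B (RAE230B), which carry different probe sets apart from a shared few. Levels below are log2 of the rescaled signal plus a small constant, differences are osteocalcin minus neither in log2 units, and a gene is said to separate the types when all 3 colonies of one type lie above all 3 of the other. Profiles of osteocalcin colonies correlated with each other at 0.826 to 0.873 (chip A) and 0.617 to 0.664 (chip B), and those of neither colonies at 0.611 to 0.737 and 0.322 to 0.507. Colony neither III stood apart: control probe sets, which report spiked or control transcripts, took 17.4% of its chip A signal and 30.1% of its chip B signal, where the other 5 colonies had 2.63% to 7.18% and 9.17% to 23.0%. Its 5th to 95th percentile range was the narrowest, 5.63 log2 units on chip A and 4.93 on chip B, against 6.48 to 7.58 and 5.32 to 5.87. The 3' signal of the actin control exceeded its 5' signal by 2.51 to 3.80 on chip A in these 6 colonies, and the types overlapped. On chip B the excess was 5.60 in neither II and 2.41 to 4.09 in the other 5 colonies. For the Gapdh control it was 1.06 on chip A and 1.08 on chip B in neither II. The other 5 colonies had 3.17 to 3.64 and 3.54 to 3.84, so neither II stood apart in this measure. Chip A arrays of osteocalcin colonies were processed on another fluidics station than those of neither colonies, so station and type cannot be told apart there. The chip A array of osteocalcin I did not share the date of most arrays, so its date differed as well. On chip B, neither I was run on a different station from the other 5 colonies compared.

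The marker transcripts did not separate the types. Bglap was dim everywhere, at 8.05, 8.19 and 8.20 in osteocalcin I to III and at 8.14, 8.22 and 9.07 in neither I to III. Cfd stood at 8.76, 8.92 and 8.55 in osteocalcin colonies and at 8.46, 9.03 and 9.10 in neither colonies. For both genes the types overlapped, and the array signal of osteocalcin itself was highest in a neither colony. The type names below are therefore those of the labels. Transcripts of secreted bone matrix proteins were abundant in both types: Spp1 (osteopontin), Sparc (osteonectin) and Col1a1 (collagen I) each lay above the 98th percentile of the array in all 6 colonies, between 99.0 and 100.0, 98.8 and 99.7, and 98.4 and 99.9.

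The genes with the widest gap on the higher side include enzymes of lipid and ketone metabolism, a Wnt ligand and a chemokine. Lpcat3, the acyltransferase that places polyunsaturated chains in membrane phospholipids, was at 10.94, 11.06 and 11.07 in osteocalcin I to III and at 8.98, 8.88 and 9.38 in neither I to III, a difference of 1.94 (SE 0.325, 3.84-fold). All 3 osteocalcin colonies lay more than 1.5 log2 units above the highest neither colony. It had the smallest adjusted p of any probe set, 0.327 by limma, and so did not pass the threshold of 0.05. Acat1, the mitochondrial thiolase that makes and splits acetoacetyl-CoA, stood at 10.79, 11.68 and 11.38 against 9.54, 9.43 and 9.35, a difference of 1.84 (SE 0.329, adjusted p = 0.335 by limma). The neither colonies lay within 0.2 units of each other, well below the lowest osteocalcin colony.

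Wnt2, a secreted Wnt ligand, was at 11.22, 11.37 and 11.52 in osteocalcin colonies and at 9.74, 9.17 and 9.54 in neither colonies, a difference of 1.89 (SE 0.515, adjusted p = 0.611 by limma). The colonies with both markers sat at the neither level, at 9.55, 9.77 and 9.52. The other 2 probe sets of Wnt2 were also higher in osteocalcin colonies, by 0.59 with the types separated and by 1.24 with the types overlapping. Ccl21, a chemokine that guides cells bearing the receptor Ccr7, was at 11.19, 11.39 and 11.78 against 9.66, 9.78 and 9.73, a difference of 1.73 (SE 0.574, adjusted p = 0.611 by limma). Its levels in the colonies with both markers, 8.96, 8.86 and 10.58, also lay below every osteocalcin colony. For this pair of secreted signals the osteocalcin colonies stood above both other types.

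Caap1, an inhibitor of caspase activity, had the widest gap of all: 10.80, 11.20 and 10.94 in osteocalcin colonies against 9.08, 8.58 and 8.72 in neither colonies (2.19, SE 0.511). Also higher were Pold4, the small subunit of DNA polymerase delta (1.68), Fxr2, an RNA-binding relative of the fragile X protein (1.80), Chmp4c, a membrane-severing ESCRT-III subunit (1.85), Snrpd1, a core protein of spliceosomal particles (1.53), and C13h1orf115 (1.66). Ppp6r1, a regulatory subunit of protein phosphatase 6, differed by 1.71 on one probe set and by -0.13 on its other. Of the 12 genes on this side, all but Wnt2 and Ccl21 were also high in the colonies with both markers, whose lowest value lay above the highest neither colony for each.

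**Figure D1:**
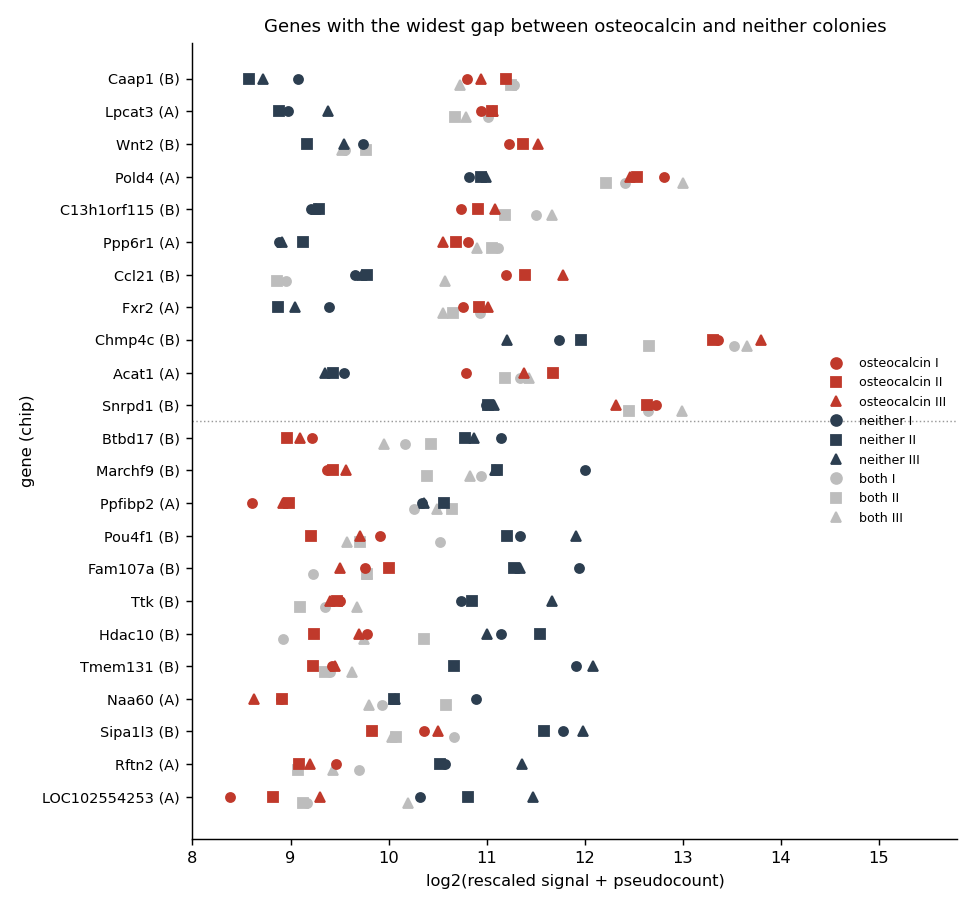
Level of 23 of the 24 genes with the widest gap between the types in each colony; x axis, log2(rescaled signal + pseudocount); y axis, gene with its chip. Red symbols are osteocalcin colonies, dark symbols neither colonies and grey symbols, set slightly lower, colonies with both markers; genes above the dotted line were higher in osteocalcin colonies. Red and dark symbols do not mix in any row because the genes were chosen for that gap, and the grey symbols of Wnt2 and Ccl21 all lie below the red ones.

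On the lower side the widest gaps belonged to genes that were dim in osteocalcin colonies. Genes on the higher side such as Caap1 and Lpcat3 were likewise dim in neither colonies. The size of such a difference depends on the constant added before log2. For Caap1 the difference of 2.19 became 1.59 with that constant doubled and 4.16 with log2(signal + 1). Marchf9, a membrane-bound ubiquitin ligase, was at 9.38, 9.43 and 9.56 in osteocalcin colonies and at 12, 11.11 and 11.08 in neither colonies (-1.94, SE 0.503, adjusted p = 0.611 by limma). Pou4f1, a POU-domain transcription factor known from sensory neurons, was at 9.91, 9.21 and 9.71 against 11.34, 11.21 and 11.91 (-1.87). Both genes were separated by more than 1 log2 unit. Ppfibp2, a scaffold of the liprin family, was at 8.61, 8.99 and 8.92 against 10.34, 10.57 and 10.36 (-1.58), and the colonies with both markers sat at the neither level, 10.26 to 10.65.

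Also lower were Btbd17 (-1.84), Fam107a, an actin-associated protein (-1.76), Ttk, the spindle checkpoint kinase (-1.62), Naa60, an N-terminal acetyltransferase (-1.52), Sipa1l3 (-1.55), Rftn2, a raft-associated protein (-1.57), and LOC102554253 (-2.04). Hdac10, a polyamine deacetylase, stood at -1.66 on its widest-gap probe set and at -0.52 and 0.61 on its others. Tmem131, which takes part in collagen secretion, was at -2.18 on 1 probe set and at 0.17 and 0.34 on its other 2. On chip A, both III ran on the neither station. For 6 of the 9 chip A genes among the 24 it was nearer to the osteocalcin mean and for 3 nearer to the neither mean. The 6 were the higher genes and Rftn2, and the 3 were Ppfibp2, Naa60 and LOC102554253. Because both III is of another type and the genes were chosen for their gap, these values cannot tell station from type.

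Across all probe sets limma called 0 of 19314 at an adjusted p under 0.05, a background of 0%. At an unadjusted p under 0.05 there were 1450 (7.51%), with 798 higher (4.13%) and 652 lower (3.38%) in osteocalcin colonies. The split turned at the deposited scale (497 higher and 683 lower), without the filter (955 and 1398), without osteocalcin II (569 and 596) and without osteocalcin III (492 and 541). The types separated for 2358 probe sets (12.2%), 1224 higher (6.34%) and 1134 lower (5.87%). The lowest p open to an exact permutation test at this size is 0.1, and the median standard error of a difference was 0.497.

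The direction of a difference moved with the level of the gene. With 1 probe set per gene, 10080 genes were tested, of which 54% were higher in osteocalcin colonies and the median difference was 0.05. The types separated for 7.32% of them on the higher and 5.81% on the lower side, and an unadjusted p under 0.05 was reached by 4.57% and 3.21%. Divided into 5 bins of equal size from dimmest to brightest, the genes had median differences of -0.18, -0.12, -0.0027, 0.12 and 0.33, and 38.8%, 42.3%, 49.9%, 59.9% and 79.2% of them were higher. In the brightest bin, at mean levels above 11.86, 16.8% of genes separated higher and 0.942% lower. In the dimmest bin these shares were 3.52% and 8.38%. After cyclic loess normalization, which removes a trend with level and was added once the trend had been seen, the medians of the bins were 0.06, 0.02, 0.02, 0.03 and 0.04. The lists below are to be read beside the bin in which most of their members lie, and medians after cyclic loess are given with them.

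**Figure D2:**
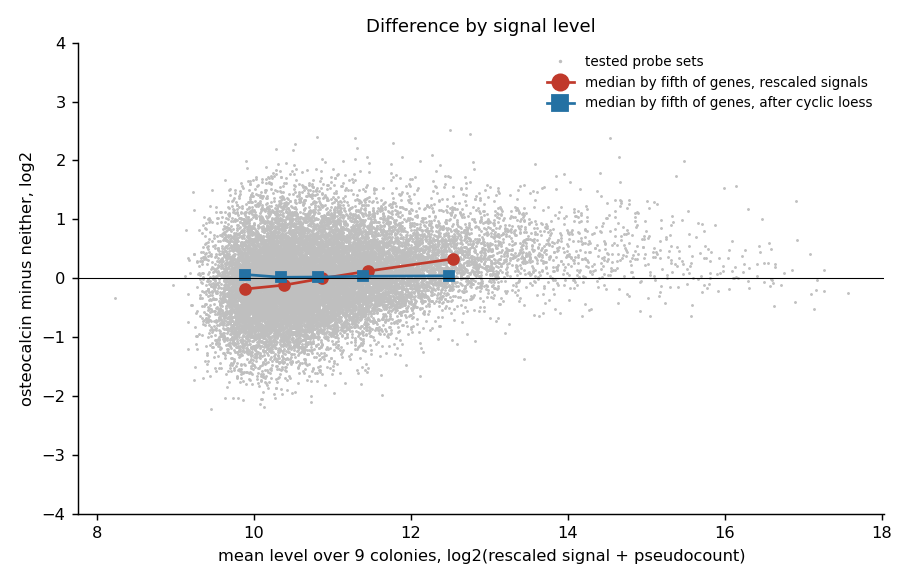
Difference between the types (y axis, osteocalcin minus neither, log2) against mean level over the 9 colonies (x axis, log2) for the 19314 tested probe sets (grey). Red circles are medians of the 5 bins of genes from rescaled signals, which climb from -0.18 to 0.33, and blue squares are the medians after cyclic loess, which stay between 0.02 and 0.06.

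Genes read by several probe sets gave few agreeing separations. Of 2337 genes with 2 or more tested probe sets, all probe sets separated the types in 9 genes on the higher side (0.385%) and in 5 on the lower (0.214%). Scp2, a lipid carrier that also yields a peroxisomal thiolase, was higher by 1.48 (13.32, 14.04 and 13.93 against 12.72, 11.58 and 12.55) and by 0.81 on its probe sets. Eef1a1, the translation elongation factor, was higher by 1.25 and 0.72, although it has near-identical pseudogene copies that can share probes. Necap2, an endocytic adaptor (0.76 and 1.22), Caap1 (2.19 and 1.22), Snrnp25, a minor spliceosome protein (0.85 and 0.81), Smim7 (1.12 and 0.70), Dysf, the membrane repair protein dysferlin (0.77 and 1.01), Sh3glb1, a membrane-curving protein (0.58 and 1.2), and Cadm1, a cell adhesion molecule (0.66 and 0.98), completed the higher side. Without neither III the values of Cadm1, Dysf and Sh3glb1 that depended most on that colony were 0.16, 0.34 and 0.52. On the lower side were Zfp692, a zinc-finger protein (-1.42 and -0.83), Ghrhr, the growth hormone-releasing hormone receptor (-0.75 and -0.72), Pdp2, a phosphatase that activates pyruvate dehydrogenase (-0.73 and -0.64), Tmem259 (-0.43 and -1.14) and Plxdc1, a membrane receptor (-0.51 and -0.60).

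A set of 98 probe sets is tested on both chips and so reads the same RNA through separate hybridizations. Of these, 74 differed in the same direction on both chips, 69 higher and 5 lower in osteocalcin colonies, with median differences of 0.20 on chip A and 0.71 on chip B. The types separated for 19 on chip A and 40 on chip B, and for 13 on both, all higher, which are 68.4% of the first set and 32.5% of the second. Over all tested probe sets 12.2% separated, 6.34% higher and 5.87% lower. Many of the shared probe sets were bright, and in the brightest bin 79.2% of genes were higher and 16.8% separated higher. The shared direction is to be read beside that trend with level. Sumo2, a ubiquitin-like modifier, was at 13.52, 13.75 and 13.63 against 12.72, 12.63 and 12.99 on chip A, and at 14.87, 15.25 and 14.99 against 14.05, 13.60 and 13.87 on chip B. The osteocalcin colonies lay above the neither colonies in both readings.

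**Figure D3:**
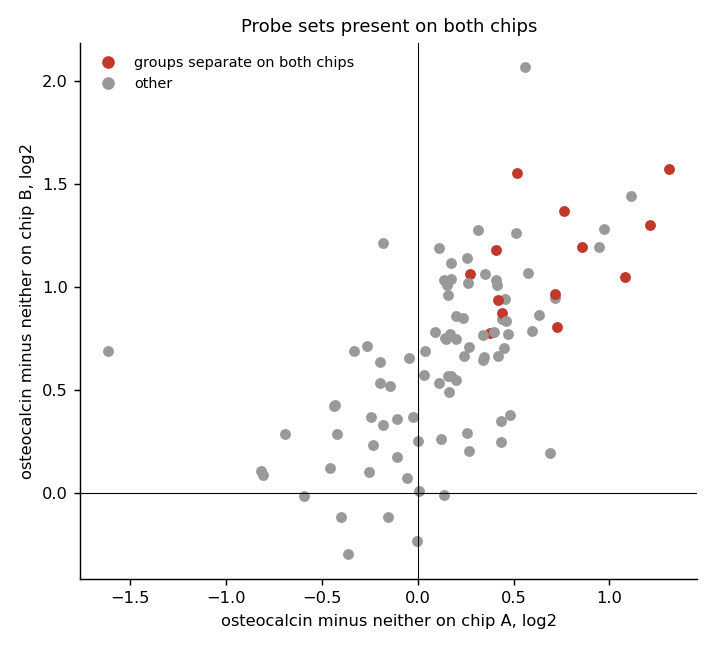
Difference between the types for the 98 probe sets present on both chips, on chip A (x axis, log2) and chip B (y axis, log2). Red points are the 13 whose types separated on both chips, all in the upper right, and grey points are the others.

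Lysosomal genes were higher in osteocalcin colonies in most cases. Lysosomes hold cathepsins, proteases that work in acid, and a proton pump, the V-ATPase, that makes the acid; osteoblast-lineage cells use both to turn over matrix. Of 36 tested members 33 were higher (54% of all genes and 79.2% of the brightest bin were), with a median of 0.39, and 10 separated higher and 0 lower (7.32% and 5.81% of all genes). Within the brightest bin the list had 27 members, of which 25 were higher and 8 separated higher, beside 16.8% of that bin. After cyclic loess 28 of 36 were higher with a median of 0.20, and 6 separated higher. The mean over the list was 13.13 ± 0.074 (SD, n = 3) in osteocalcin colonies and 12.59 ± 0.15 (SD, n = 3) in neither colonies, with no overlap, and the colonies with both markers, at 13.21, 13.10 and 13.19, matched the osteocalcin level. In such bulk samples fewer cells of a kind and less RNA per cell cannot be told apart.

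Cst3, or cystatin C, a secreted inhibitor of cysteine cathepsins, led the list at 13.87, 14.61 and 14.38 against 12.75, 11.95 and 12.98 (1.73, SE 0.372, adjusted p = 0.611 by limma). Ctsa, a serine carboxypeptidase that also shields lysosomal sialidase, was at 14.03, 13.71 and 14.12 against 12.79, 11.84 and 12.47 (1.59). Ctsk, the collagen-degrading cathepsin K, was at 13.28, 13.66 and 13.54 against 12.39, 12.52 and 11.92 (1.22). In all 3 genes every osteocalcin colony lay above every neither colony, and every colony with both markers did too. Among further members, named after their values were seen, the V-ATPase subunits Atp6v0b (1.33), Atp6v1d (0.73), Atp6ap2 (0.82) and Atp6v0d1 (0.30) separated, as did the cathepsins Ctsz (1.17) and Ctsl (0.66). The membrane protein Lamp1 did not (0.27).

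Many lysosomal genes carry the E-box CACGTG near their start, the core of the site read by the transcription factor Tfeb. The letters CACGTG, which read the same on both strands, were searched from 250 bases before to 50 after the start of each gene in the RefSeq promoter table (GRCr8). They occurred in 8 of the 32 list members found there (25%) and in 1826 of all 27457 promoters (6.65%). Of the 10 members that separated the types 1 held them (10%), and of the other 22 members 7 did (31.8%). The 250 bases before the start are shown, with CACGTG in capitals, for the list leader without a match, the 1 separated member with a match, and the member with the most matches, whose types overlapped. They lie at chr3:156793938-156794187 (minus strand), chr19:50357249-50357498 (minus strand) and chr16:83075064-83075313 (minus strand).
Cst3: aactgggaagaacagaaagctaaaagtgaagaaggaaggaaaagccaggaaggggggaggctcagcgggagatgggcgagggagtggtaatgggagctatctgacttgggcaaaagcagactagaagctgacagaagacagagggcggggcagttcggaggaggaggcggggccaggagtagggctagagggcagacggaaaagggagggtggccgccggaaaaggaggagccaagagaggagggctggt
Atp6v0d1: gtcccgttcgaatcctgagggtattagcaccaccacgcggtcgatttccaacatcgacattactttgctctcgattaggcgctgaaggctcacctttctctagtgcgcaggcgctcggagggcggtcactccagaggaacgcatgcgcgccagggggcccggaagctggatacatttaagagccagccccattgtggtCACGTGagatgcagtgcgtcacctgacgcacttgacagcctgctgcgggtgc
Lamp1: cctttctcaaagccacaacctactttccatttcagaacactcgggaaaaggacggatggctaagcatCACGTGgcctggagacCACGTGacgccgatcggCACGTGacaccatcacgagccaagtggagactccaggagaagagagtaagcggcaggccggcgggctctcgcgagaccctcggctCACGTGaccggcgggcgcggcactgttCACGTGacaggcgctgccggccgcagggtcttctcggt
Cst3 holds no match in this window, Atp6v0d1 holds 1 and Lamp1 holds 5.

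Among mitochondrial genes, the list means of complexes II and III, the citrate cycle, fatty acid oxidation and the mitochondrial ribosome separated the types. Those of complexes I and IV and ATP synthase did not. Such a separation was not particular to these lists. The means of the lysosome, glycolysis, proteasome and antioxidant lists also separated higher, and no list mean separated lower. The respiratory chain passes electrons from complexes I and II through III to IV, and ATP synthase uses the resulting gradient. Of 12 tested subunits of complexes II and III, 11 were higher with a median of 0.51, and 6 separated (7.32% of all genes and 16.8% of the brightest bin did). Their list mean was 13.32, 13.41 and 13.56 in osteocalcin I to III and 12.98, 12.86 and 12.91 in neither I to III, without overlap. Of 34 complex I subunits 27 were higher (median 0.36, 6 separated), of 16 for complex IV 13 (0.18, 1 separated) and of 14 for ATP synthase 12 (0.32, 0 separated). These are 79.4%, 81.3% and 85.7% higher, near the 79.2% of the brightest bin, in which 27, 10 and 13 of the members lay. Leaving out neither I moved the complex IV median to -0.02 and that of ATP synthase to 0.19. After cyclic loess the medians were 0.24 for complexes II and III, 0.12 for complex I, 0.01 for complex IV and -0.01 for ATP synthase, with 8 of 12, 21 of 34, 8 of 16 and 6 of 14 members higher.

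Ndufv1, the complex I subunit that takes electrons from NADH, was at 10.64, 11.03 and 11.34 in osteocalcin colonies and at 9.35, 9.81 and 8.40 in neither colonies (1.81, SE 0.401, adjusted p = 0.611 by limma). Its partner Ndufv2 was at 13.30, 13.05 and 13.37 against 12.03, 9.65 and 12.86 (1.72), and Ndufa3 differed by 1.10. The types separated in each, but neither II was alone at the bottom for Ndufv2, which stood at 0.79 without it. The succinate dehydrogenase subunits Sdhb, at 12.34, 12.40 and 12.64 against 11.95, 10.01 and 11.61 (1.27), and Sdhc (0.94), together with cytochrome c1, Cyc1 (1.05), showed the same low value in neither II. Without that colony Sdhb and Sdhc stood at 0.68 and 0.47.

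Upstream of the chain, 11 of 15 citrate cycle genes were higher (54% of all genes were), with a median of 0.41, or 0.29 after cyclic loess. Of the 15, 5 lay in the brightest bin, and 3 separated higher (7.32% of all genes did). The list mean was 12.06, 12.08 and 12.04 against 11.83, 11.64 and 11.50. Mdh1, the cytosolic malate dehydrogenase, was at 14.89, 14.39 and 14.67 against 13.89, 13.54 and 13.61 (0.97), and Idh3g, an isocitrate dehydrogenase subunit, differed by 1.16. Of 18 genes for fatty acid oxidation and ketone metabolism 15 were higher (median 0.31, and also 0.31 after cyclic loess). Only 5 of the 18 lay in the brightest bin. In this list 3 separated higher, among them Acat1 and Hadh (0.89), and 1 lower (7.32% and 5.81% of all genes did). The lower one was Cpt1a, the carnitine transferase that admits fatty acids to mitochondria, at 10.40, 11.04 and 10.71 against 11.72, 11.33 and 12.29 (-1.07, SE 0.358). Cpt1a thus lay on the other side from most of its list. Of 43 mitochondrial ribosomal proteins 35 were higher (median 0.17, 0.02 without neither I, 0.07 after cyclic loess), led by Mrpl20 (1.01). Of these, 6 separated, 4 of them among the 18 in the brightest bin, where 16.8% of genes did.

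**Figure D4:**
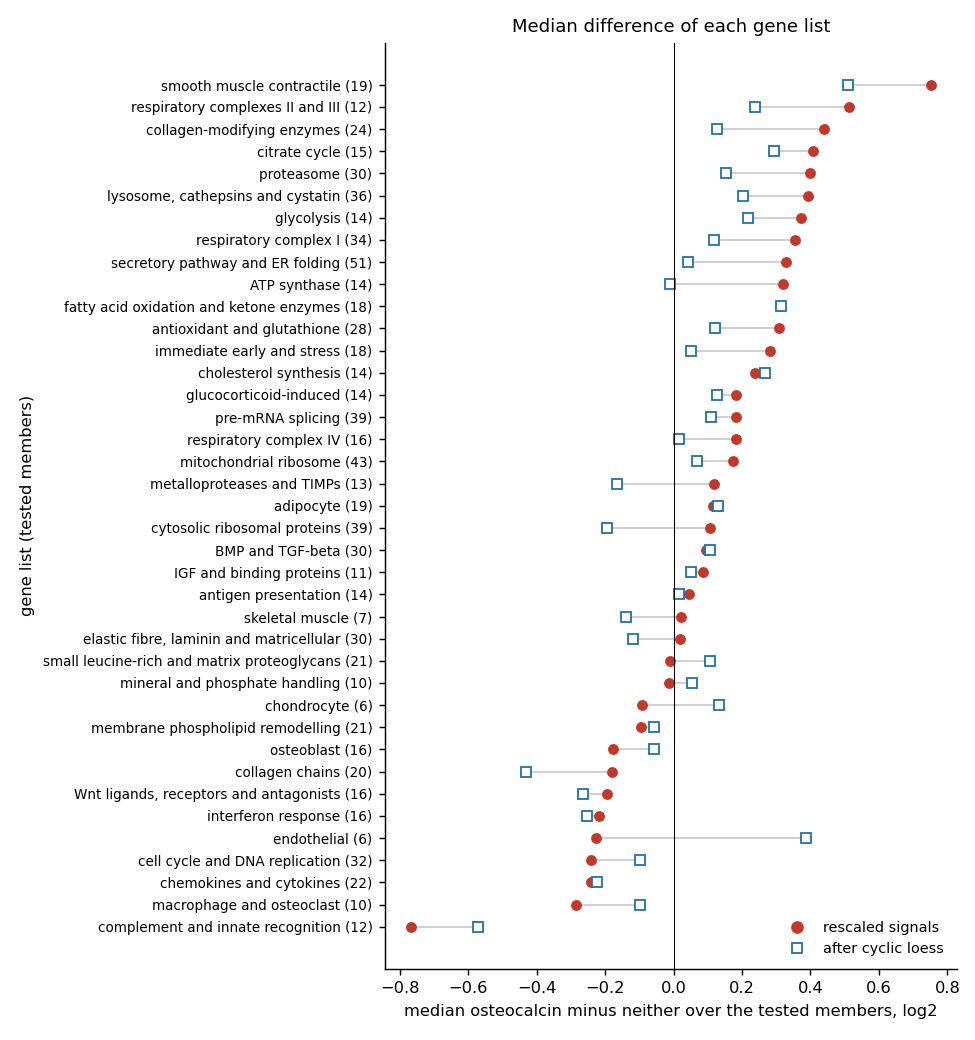
Median difference between the types (x axis, osteocalcin minus neither, log2) of each of the 39 gene lists, with the number of tested members after its name. Red circles are rescaled signals and blue open squares are values after cyclic loess; the smooth muscle list is at the top at 0.75 and 0.51, and the complement list at the bottom at -0.77 and -0.57.

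For genes that make and break down proteins, the shares lay near or below those of bright genes for separation. Of 30 proteasome subunits 27 were higher (median 0.40, 0.26 without neither II, 0.15 after cyclic loess, 20 in the brightest bin), and 5 separated, a share near the 16.8% of that bin. The regulatory subunits Psmd13, at 12.09, 12.20 and 11.89 against 10.96, 11.26 and 9.40 (1.52), and Psmd2 (1.18) separated the types. Of 51 genes of the secretory pathway and folding in the endoplasmic reticulum 37 were higher (median 0.33, 0.17 without neither III, 0.04 after cyclic loess), 72.5% against 79.2% in the brightest bin, where 44 of them lay. Of these 44, 33 were higher and 7 separated higher (16.8% of the bin did), and over the whole list 8 separated higher and 1 lower. Fkbp2, a prolyl isomerase of the endoplasmic reticulum, was at 11.77, 11.76 and 10.51 against 9.26, 8.42 and 9.51, a difference of 2.29 (SE 0.427, adjusted p = 0.335 by limma). Ssr2, a translocon-associated subunit, differed by 1.38 and separated, while P4hb, the disulfide isomerase that is also a subunit of collagen prolyl hydroxylase, was at 14.99 to 15.06 in osteocalcin colonies and at 15.18, 12.51 and 13.39 in neither colonies, so the types overlapped.

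Of 39 cytosolic ribosomal proteins 25 were higher (64.1%, median 0.11, and -0.07 without neither I) and 5 separated higher. Of the 39, 37 lay in the brightest bin, where 79.2% of genes were higher and 16.8% separated higher. After cyclic loess the median of this list was -0.19. Of 14 glycolytic genes 12 were higher (median 0.37, 0.22 after cyclic loess), led by the lactate dehydrogenases Ldha (1.02) and Ldhb (1.19), whose types overlapped. In this list 3 members separated higher (7.32% of all genes did), 2 of them among the 7 in the brightest bin. Antioxidant genes had 21 of 28 higher (median 0.31, 0.12 after cyclic loess) and 4 separated, with 20 members in the brightest bin, where 79.2% of genes were higher and 16.8% separated higher. Gpx1, the main cytosolic glutathione peroxidase, was at 15.42, 15.44 and 15.50 against 13.88, 12.75 and 14.82 (1.64), and Gpx7, a peroxidase of the endoplasmic reticulum, differed by 0.96. The 3 osteocalcin colonies lay within 0.1 units of each other for Gpx1 and the neither colonies were spread over 2 units.

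Matrix genes did not share 1 direction. Of 20 tested collagen chains 5 were higher and 15 lower (median -0.18, -0.43 after cyclic loess), although 12 of them lay in the brightest bin, in which 79.2% of genes were higher. Col15a1, a collagen of basement membrane zones, was the 1 chain that separated, at 10.39, 10.67 and 11.24 against 11.62, 11.65 and 11.24 (-0.74); osteocalcin III and neither III were all but equal. Col6a3, a microfibril chain, was at 9.81, 8.71 and 10.02 against 9.95, 13.05 and 10.36 (-1.60), and at -0.64 without neither II. The list mean was 12.48, 11.85 and 12.44 in osteocalcin colonies and 12.56, 13.14 and 12.01 in neither colonies, so the types overlapped, with neither II on top, and without that colony the list median was -0.07.

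Of the enzymes that modify and cross-link collagen, 19 of 24 were higher (79.2%, median 0.44, 0.13 after cyclic loess). The brightest bin, in which 17 of them lay, had the same share of higher genes, 79.2%. In this list 2 separated higher and 1 lower (7.32% and 5.81% of all genes did). Without neither III the median was 0.14. Mmp23, a membrane-bound metalloprotease, was at 11.12, 11.36 and 12.04 against 9.64, 10.54 and 8.76 on chip A (1.86, SE 0.448). On chip B one further probe set of Mmp23 differed by 2.45 and another by -0.12. Bmp1, which trims procollagen ends, was lower (-0.81) and separated. Among matrix proteoglycans 10 of 21 were higher (median -0.01, 0.11 after cyclic loess), and Bgn, the proteoglycan biglycan, was at 12.66, 13.43 and 12.75 against 12.26, 11.54 and 10.21 (1.61, SE 0.486). Aspn (asporin) also separated, with a difference of 0.91.

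Of 30 elastic fibre, laminin and matricellular genes 15 were higher and 15 lower (median 0.02, -0.12 after cyclic loess), and 4 separated, all lower (5.81% of all genes did). Fbln1, the elastic fibre protein fibulin-1, was at 9.16, 9.75 and 8.60 against 10.62, 10.68 and 11.42 (-1.73, SE 0.593), and Nid2, a basement membrane linker named after its values were seen, was at -0.86. Higher without separation were Ccn3 (1.23) and Tgfbi (1.00), secreted proteins that bind integrins. Metalloproteases and their inhibitors were split, 7 higher and 6 lower (median 0.12, -0.16 after cyclic loess), with Adamts1 at 1.04 and at 0.09 without neither III.

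Complement and innate recognition genes had the lowest median of the 39 lists, a rank that rested on neither II: without it the median was -0.34 and the endothelial list stood at -0.59. Complement is a cascade of plasma proteins that tag and lyse targets; C1r and C1s start it, C3 is its centre, and the inhibitor encoded by Serping1 restrains it. Of 12 tested members 3 were higher and 9 lower (median -0.77, -0.57 after cyclic loess), and 5 separated lower (5.81% of all genes did). The list includes Cfd, the adipsin gene by which colonies were typed. Mbl2, a lectin that binds microbial sugars, was at 8.71, 9.93 and 8.85 against 10.90, 10.90 and 11.86 (-2.06, SE 0.483, adjusted p = 0.611 by limma). C1r was at 8.66, 8.93 and 8.62 against 9.97, 12.41 and 9.41 (-1.86), and at -0.96 without neither II. C1s overlapped, with 14.73 in neither II and 8.79 to 10.55 in the other 5 colonies (-1.98, and -0.54 without neither II). C3 (-1.56), Serping1 (-0.98) and the collectin Colec12 (-0.55), named after their values were seen, separated too, with neither II highest in each. Without that colony these stood at -0.75, -0.40 and -0.34.

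Among chemokines and cytokines 17 of 22 were lower (median -0.24, -0.52 without neither I, -0.22 after cyclic loess). The list is dim, with a median level of 10.26, in a bin where 42.3% of genes were higher and 8.18% separated lower. In it 2 members separated lower and Ccl21 alone higher. Cntfr, a receptor subunit for ciliary neurotrophic factor, was at 11, 9.85 and 9.83 against 12.10, 11.74 and 12.71 (-1.96, SE 0.452). The neutrophil-attracting chemokine Cxcl3 was at 8.60, 9.08 and 8.54 against 9.98, 10.57 and 11.20 (-1.84). Both receptors and ligands were thus found among the lower genes, each with about 1 log2 unit or less between the types. Antigen presentation genes were split 7 to 7 (median 0.05, -0.30 without neither III, 0.02 after cyclic loess). Within that list RT1-CE16, a class I histocompatibility gene of a family with near-identical copies, was at 9.16, 9.97 and 10.56 against 11.87, 11.08 and 11.60 (-1.62), whereas Tapbp, which loads peptides on class I molecules, was higher by 1.36. Interferon response genes had 11 of 16 lower (median -0.22, -0.04 without osteocalcin III, -0.25 after cyclic loess), 0 of them separated, with Bst2 at -0.66 and Irf7 at -0.57.

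**Figure D5:**
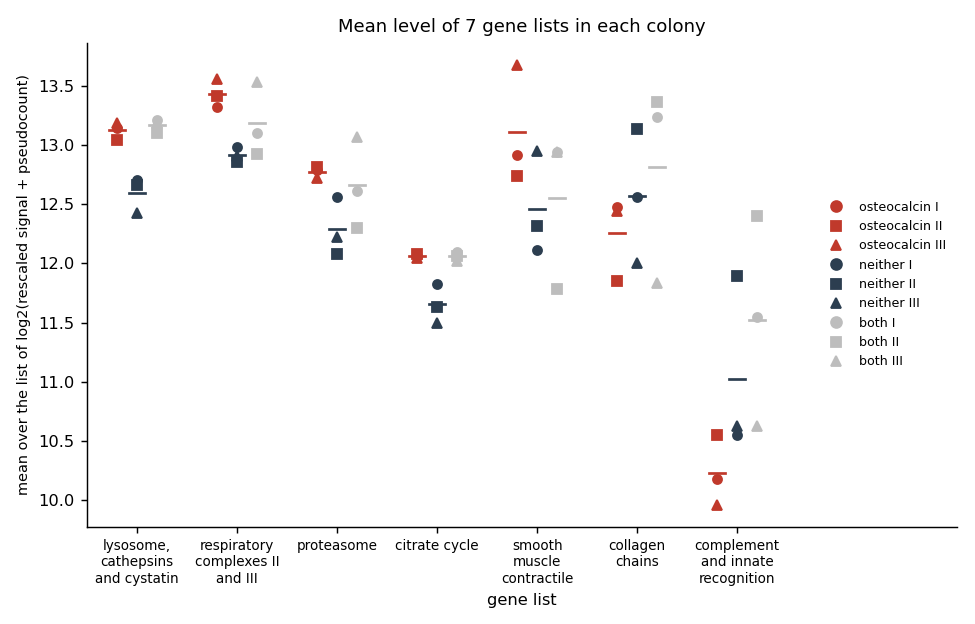
Mean level of 7 gene lists (y axis, mean over the tested members of log2(rescaled signal + pseudocount)) in each colony; x axis, gene list. Symbols are colonies I to III (circle, square, triangle), short lines are the mean of 3 colonies, red is osteocalcin, dark neither and grey both. Red lies above dark for the lysosome, complexes II and III, proteasome and citrate cycle lists, and the types overlap for smooth muscle, collagen and complement.

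Osteoblast genes showed no common direction. Of 16 tested members 6 were higher and 10 lower (median -0.18, 0.0031 without osteocalcin I, -0.06 after cyclic loess). In this list 1 separated higher and 0 lower (7.32% and 5.81% of all genes did). The summed signal of the list ran from 254871 to 622760 in osteocalcin colonies and from 385705 to 485089 in neither colonies. Sparc, a collagen-binding matrix protein, was at 16.14, 16.31 and 16.50 against 15.62, 16.03 and 14.55 on the probe set that separated (0.91, and 0.49 without neither III), and at -0.04 on its other. Cthrc1, a secreted protein of bone and repair tissue, was at 16.17, 14.89 and 16.46 against 12.81, 15.52 and 13.20 (2.0, SE 0.906), with neither II above osteocalcin II. Named after their values were seen, Col1a1 (-0.64), Col1a2 (-0.64), Spp1 (0.20), Postn (-0.43) and Enpp1 (0.23) overlapped, each with an SE above its difference. Genes for mineral and phosphate handling split 5 to 5 (median -0.01, 0.05 after cyclic loess), with Anxa2, a calcium-binding annexin, at 0.95 on 1 probe set and at -0.57 on its other.

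Adipocyte genes split 10 higher to 9 lower of 19 tested (median 0.11, -0.03 without neither II, 0.13 after cyclic loess). Pnpla2, the lipase that starts triglyceride breakdown, was at 9.79, 10.20 and 10.56 against 8.78, 9.09 and 9.39 (1.10, SE 0.421). Dgat1, which completes triglyceride synthesis, was at 10.97, 11.57 and 11.60 against 10.57, 9.68 and 10.63 (1.09). Both separated higher, and Aqp7, the glycerol channel, separated lower (-0.99), as did Acaca, the first enzyme of fatty acid synthesis (-0.33, named after its values were seen). The summed signal of the list was 23122 to 28852 in osteocalcin colonies and 23301 to 29825 in neither colonies.

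Markers of other cells that a colony could hold did not separate the types as lists. Of 19 smooth muscle contractile genes 16 were higher (84.2%), with the largest median of any list (0.75, 0.51 after cyclic loess). The brightest bin, which held 12 of them, had 79.2% of its genes higher. Yet 0 members separated higher and 1 lower (7.32% and 5.81% of all genes did), namely Itga1, an integrin subunit (-1.07). The list mean was 12.91, 12.74 and 13.68 in osteocalcin I to III and 12.11, 12.32 and 12.95 in neither I to III, and without osteocalcin III the median was 0.26. Cnn1 (calponin) and Csrp1, a muscle LIM protein, illustrate it: Cnn1 was at 12.52, 12.27 and 14.05 against 11.07, 12.23 and 12.37 (1.05, and 0.50 without osteocalcin III), and Csrp1 differed by 0.80. Skeletal muscle (7 tested, median 0.02), chondrocyte (6, -0.09), endothelial (6, -0.23) and macrophage and osteoclast genes (10, -0.28) had few members above the filter. After cyclic loess these medians were -0.14, 0.13, 0.39 and -0.10, so the sign of the first 3 turned. The summed signals of all 5 lists overlapped between the types: from 292948 to 610592 in osteocalcin and 169896 to 345310 in neither colonies for smooth muscle, and from 21406 to 30729 and 19566 to 22135 for macrophage and osteoclast genes. The part of such cells in the other differences was not tested. In the last list Ctsk, counted among the lysosomal genes too, was higher, and Cd74, the invariant chain of class II molecules, was lower (9.50, 9.93 and 9.53 against 10.53, 10.26 and 10.91, -0.91). Cd14, the lipopolysaccharide co-receptor, was higher and separated (1.07, and 0.42 without neither III), whereas Tnni1, a slow muscle troponin (-0.87), and Ramp2, an adrenomedullin receptor partner (-0.88), separated on the lower side of their lists.

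Signalling lists were near even as well. Of 30 BMP and TGF-beta genes 18 were higher (median 0.09, -0.09 without neither III, 0.11 after cyclic loess), and Id1, a direct BMP target that blocks helix-loop-helix factors, was at 13.65, 14.41 and 13.77 against 12.39, 12.79 and 13.10 (1.18, SE 0.402). Of 16 Wnt ligands, receptors and antagonists 10 were lower (median -0.19, -0.0042 without osteocalcin II, -0.26 after cyclic loess), including the secreted antagonist Sfrp4 (-0.96), which separated. Igfbp2, a binding protein for insulin-like growth factors, was at 14.21, 15.15 and 15.36 against 13.08, 12.95 and 12.86 (1.94, SE 0.700), and Htra1, a protease that can cleave such proteins, was higher by 0.81; both separated within a list of 11 with a median of 0.09, or 0.05 after cyclic loess. With station as a block the Igfbp2 difference turned to -0.67. The osteocalcin colonies thus lay more than 1 log2 unit above the neither colonies for this secreted protein in the fit without that block.

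Of 32 cell cycle and replication genes 12 were higher (37.5%), near the 42.3% of the bin that holds their median level. Their median difference was -0.24, or -0.07 without osteocalcin I and -0.10 after cyclic loess. Of the 32, 4 separated higher and 2 lower, beside 4.17% and 8.18% of that bin and 7.32% and 5.81% of all genes. The higher ones included Pold4, Cdkn2a, which encodes inhibitors of cyclin-dependent kinases and of Mdm2 (11.54, 12.36 and 12.54 against 10.87, 9.58 and 11.50, a difference of 1.5), and Tyms, thymidylate synthase (1.16). Splicing genes had 26 of 39 higher (median 0.18, 0.01 without neither III, 0.11 after cyclic loess), with Snrpd1 and Sf3a1, a U2 particle subunit (-0.94), separating in opposite directions. Cholesterol synthesis (8 of 14 higher, median 0.24, -0.02 without neither I, 0.27 after cyclic loess) was led by Nsdhl, a sterol dehydrogenase, at 13.10, 13.30 and 13.34 against 12.51, 12.47 and 12.47 (0.76). Membrane phospholipid remodelling genes were even (10 of 21 higher, median -0.09, -0.06 after cyclic loess), and Mboat1, another acyltransferase, separated lower (-0.96). Glucocorticoid-induced genes (9 of 14 higher, median 0.18, -0.26 without neither III, 0.13 after cyclic loess) did not separate in any member, with Fkbp5 at -1.0 and Tsc22d3 at 0.91 (0.11 without neither III). Immediate early and stress genes had 14 of 18 higher (77.8%, median 0.28, 0.16 without neither III, 0.05 after cyclic loess). Of these 18, 10 lay in the brightest bin, where 79.2% of genes were higher. Gadd45b, a stress-induced growth arrest protein, was at 11.42, 11.79 and 11.97 against 10.99, 10.86 and 9.17 (1.38, and 0.80 without neither III).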

How the data were processed

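Per the labels, RNA of each colony was amplified with a small sample protocol and hybridized to Affymetrix RAE230A and RAE230B arrays. The authors deposited 1 intensity for each probe set, made with MAS5 per the submitters' processing notes, which name no version. The chip A array of osteocalcin I was deposited unscaled, with a trimmed mean of 64.4, so every array was rescaled to a mean of 1500 after trimming 2% at each end. Log2 was taken after adding each chip's 25th percentile (239 on chip A, 336 on chip B). Probe sets above the array median on at least 3 of 9 arrays were kept (9427 and 9887), with Bglap and Cfd exempt and control probe sets left out. One model per chip with 3 type means was fitted with limma 3.58.1 in R 4.3.3 (trended eBayes), and p-values were adjusted by Benjamini-Hochberg over both chips. It was tested on simulated data. Figures used matplotlib 3.10.9 in Python 3.11.15.

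Of 31256 probe sets, 20359 name 1 gene in the platform annotation, 412 several and 10485 none. For lists, 1 probe set stands for a gene, chip A before chip B and then the brightest. Genes were named by these rules: the 12 widest gaps in each direction, up to 10 genes in each direction whose probe sets all separate, the 3 smallest p per list, and the 2 marker genes. One gene that the first rule names is not reported here. Further genes are said to be named after their values were seen. Members and lists were chosen with earlier results of these data known. Promoters come from RefSeq (GRCr8). The labels do not say whether a colony number is shared between the types. Deviations of same-numbered colonies correlated at 0.17, -0.14 and 0.16 on chip A and at 0.07, -0.08 and 0.07 on chip B. With so few colonies these values cannot decide whether the numbers pair them, and the main fit used no pairing. The number of arrays limits the precision, and the alternatives tried were the pseudocount, filter, normalization, scaling, variance model, array weights, replicate and station blocks, and leaving out each colony.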

Additional observations from a re-analysis of the deposited data

How the results depend on the processing

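Every setting called 0 probe sets, with a smallest adjusted p of 0.0709 (without neither III), and the main limma count at an unadjusted p under 0.05 was 1450. Of 2745 values of the named probe sets under other settings, 51 had the opposite direction and 0 passed the threshold. Without the filter, 2353 probe sets had an unadjusted p under 0.05 and 3692 separated the types. Leaving out 1 colony gave 1033 (without osteocalcin III) to 2232 (without neither II) at that p, and 3658 to 5326 separations, because 3 colonies against 2 separate more easily. With the colony number as a replicate block the count was 1691. The labels do not say that a number is shared between the types, so this block has no stated basis in the design.

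At the deposited scale, where 1 chip A array is unscaled, the chip A median was -0.90 and these turned: Cadm1 -0.10, Eef1a1 -0.20 and -0.72, Necap2 -0.20, Scp2 -0.20, Smim7 -0.082, Ndufa3 -0.17, Cyc1 -0.22, Sdhc -0.33, Mdh1 -0.47, Mrpl20 -0.27, Ldha -0.41, Psmd2 -0.092, P4hb -0.11, Ctsk -0.090, Ctsl -0.79, Atp6v1d -0.72, Atp6v0d1 -0.74, Lamp1 -1.11, Sparc -0.57, Anxa2 -0.50, Ccn3 -0.011, Adamts1 -0.16, Csrp1 -0.40, Cnn1 -0.15, Htra1 -0.61, Id1 -0.16, Tsc22d3 -0.24, Gpx7 -0.34, Enpp1 -0.90 and Spp1 -1.30. With station as a block, which on chip A rests on the 3 colonies with both markers, these turned: Eef1a1 -0.58, Scp2 -0.14, Ghrhr 0.075, Aspn -0.18, Bst2 0.18, Igfbp2 -0.67, Cfd 0.31 and Postn 1.5. In the same fit the list medians were -1.98 for collagen chains, -1.48 for complement, 1.32 for complex I and 1.10 for the proteasome. Cfd also turned with quantile normalization (0.049) and cyclic loess (0.13), as did Lamp1 (-0.014 and -0.067) and, with cyclic loess, Spp1 (-0.053). Enpp1 turned with array weights (-0.32). Over the fits without 1 colony Postn ranged from -0.91 to 0.097, Spp1 from -0.71 to 0.72 (-0.39 without osteocalcin III), Col1a1 from -1.54 to 0.20, Lamp1 from -0.088 to 0.52 and Enpp1 from -0.30 to 0.81. For the other turns the cause was not tested.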

Other observations

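Some transcripts were far dimmer in a single colony than in all others. A probe set was counted when 1 colony lay more than 2 log2 units below the next lowest of the 9. On chips A and B these numbered 38 and 77 in neither III, 22 and 6 in neither II and 2 and 7 in neither I, and each osteocalcin colony had 0 or 1. Among the colonies with both markers they numbered 0 and 0 in both I, 7 and 0 in both II and 2 and 5 in both III. The genes named here were chosen after their values were seen.

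In neither I, Mfap5, a microfibril-associated protein, was at 8.92, where the other colonies began at 12.84, and Nnmt, which methylates nicotinamide, was at 9.26. In neither II the low genes included the translation factors Eif2s1 (8.29), Eif5a (9.13) and Eef2 (8.70), the chaperone Hsp90ab1 (8.18), the BMP target Id3 (9.69), the complex I subunit Ndufv2 (9.65) and nonmuscle myosin Myh9 (10.47). The 3' control probe set of Gapdh was also lowest in neither II, at 10.3 on chip A and 11.3 on chip B against 14.1 to 16.1 and 15.7 to 18.1 in the other 8 colonies. In neither III the low genes included Zc3h15 (9.04), Ankrd50 (9.44), the chromatin remodeller Smarca5 (8.65), the autophagy gene Atg12 (8.41) and the proteasome subunit Psmd7 (9.43). The part of these low values in the differences between the types was not tested beyond leaving out each colony.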
